A study of Mus musculus with 10 samples.

Results

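The protein arginine methyltransferases were examined in GV (germinal vesicle) oocytes of the mouse, which are arrested in prophase of the first meiotic division. Carm1, Prmt1, Prmt2, Prmt3, Prmt5, Prmt6 and Prmt7 were taken through all 15 probe sets whose only gene symbol in the platform annotation was one of these 7 genes, of 34945 probe sets with a single symbol and 18193 genes in all. Wild-type oocytes (5 arrays) were compared with oocytes depleted of CTCF (5 arrays), the zinc finger protein that binds insulators and anchors chromatin loops. The labels gave no strain, age, number of oocytes per sample or method of depletion, and did not say whether replicates came from separate animals, so errors and p-values here reflect sample-to-sample spread that may be technical. The family was chosen by the Carm1 signal of these same arrays, which was known to be higher in depleted oocytes, so all changes of its members are given as a description and without p-values.

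Protein arginine methyltransferases transfer methyl groups from S-adenosylmethionine to the side chain of arginine. Type I enzymes (Carm1, Prmt1, Prmt2, Prmt3 and Prmt6) leave asymmetric dimethylarginine, the type II enzyme Prmt5 leaves symmetric dimethylarginine, and the type III enzyme Prmt7 leaves monomethylarginine. Their substrates are histone tails and RNA-binding proteins, among them spliceosomal Sm proteins and germline Piwi proteins, and Tudor domains read the mark. In the early mouse embryo the level of CARM1 differs between blastomeres and bears on which cells form the inner cell mass.

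Signals are linear MAS5 values, and all arrays had been scaled to the same trimmed mean of 150.001. The labels held for the depleted transcript: Ctcf signal was 766 ± 74.1 (SD, n = 5) in wild type against 20.7 ± 22.7 (SD, n = 5) after depletion on one probe set, and 1001 ± 76.0 against 36.3 ± 33.7 on the other, with no overlap on either (exact permutation test, two-sided, p = 0.00794 for both, which is the minimum for 5 against 5). Depleted replicate 5 read 61.1 and 95.8 on these Ctcf probe sets in turn, while no other depleted array exceeded 14.2 and 29.3. All 10 oocyte markers, such as Zp3 and Gdf9, were above the control level on all 10 arrays. The control level is the highest signal of 27 Bacillus control probe sets on the same array, and it ran from 4.75 to 10.9. Precision is limited by the number of arrays. In limma with Benjamini-Hochberg adjustment at 0.05, 3406 of 27022 tested probe sets (12.6%) were called, 1481 higher (5.48%) and 1925 lower (7.12%) in depleted oocytes. On these scales a fold change is a difference of log2(signal + 2.47), depleted over wild type, which understates the change of dim probe sets.

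Carm1, the coactivator-associated enzyme that methylates histone H3, splicing factors and poly(A)-binding protein, was the member with the clearest difference. Its only probe set, 1419743_s_at, read 526, 375, 378, 433 and 374 in wild-type replicates 1 to 5, and 907, 758, 826, 687 and 742 in depleted replicates 1 to 5. Wild-type replicate 1 was the highest of its group, and it still lay below the lowest depleted array, so the groups did not overlap. The group means were 417 ± 65.8 (SD, n = 5) for wild type and 784 ± 84.5 (SD, n = 5) for depleted oocytes. The log2 fold change was 0.91 ± 0.10 (SE), or 1.88-fold with a 95% interval of 1.64 to 2.16. Among the 27022 tested probe sets it ranked 187th from the top by log2 fold change, and 2.14% of them had a larger absolute change. Leaving out single arrays gave log2 fold changes from 0.86 to 1.00, with the highest value without wild-type replicate 1.

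Carm1 also varied more within groups than most probe sets of like brightness. Its pooled within-group SD was 0.19 on the log2 scale, and 92.8% of the 1000 probe sets nearest in mean had a lower one. An s_at suffix marks a probe set whose probes can match transcripts of more than 1 gene, and no other Carm1 probe set could be set beside it. The log2 ratio of 3-prime to 5-prime signal was taken from the Gapdh and Actb control probe sets. It was 2.80 to 3.11 in wild type and 2.60 to 2.96 in depleted oocytes. With that ratio as a covariate the Carm1 log2 fold change was 0.93.

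Cells attached to the oocyte were also checked. Of 10 granulosa and cumulus markers, 9 were on the array and tested. Of these, 2 were called higher and 0 lower. Over all tested genes, 7.26% were called higher and 9.12% lower, or 16.4% in either direction. The 2 called higher were Fshr and Nr5a2. Fshr, the receptor of follicle-stimulating hormone, had 1.01 ± 0.18 (log2 fold change ± SE, adjusted p = 0.00107 by limma with Benjamini-Hochberg). Nr5a2, an orphan nuclear receptor, had 0.31 ± 0.07 (adjusted p = 0.00638 by limma with Benjamini-Hochberg). Of the other 7, which were not called, 6 had values below 0: -0.72 for Gja1, -0.45 for Kitl (adjusted p = 0.0628, groups without overlap), -0.43 for Inha, -0.15 for Amhr2, -0.10 for Foxl2 and -0.018 for Inhba. Amh had 0.17. The summed signal of all 9 markers was 860 to 2288 in wild type and 850 to 1202 in depleted oocytes. The highest sum came from wild-type replicate 2, where the inhibin subunit Inha read 536 and the gap junction gene Gja1 1017. Carm1 read 375 on that array, and 526, 378, 433 and 374 in wild-type replicates 1, 3, 4 and 5. Of the 9 markers, 8 were above the control level on all 10 arrays. Amh, which granulosa cells secrete, read 1.84 to 25.7. It was above that level on 3 of 5 wild-type and 4 of 5 depleted arrays. Of the tested markers of theca and stroma (5), blood and immune cells (5) and endothelium (3), 0 were called in either direction by limma with Benjamini-Hochberg adjustment. For each of these types the summed signals of all listed markers on the array, tested or not, overlapped between the groups. The part of other cells in the Carm1 difference was not tested. In such bulk samples, fewer cells of a type and less RNA per cell cannot be told apart.

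**Figure D1:**
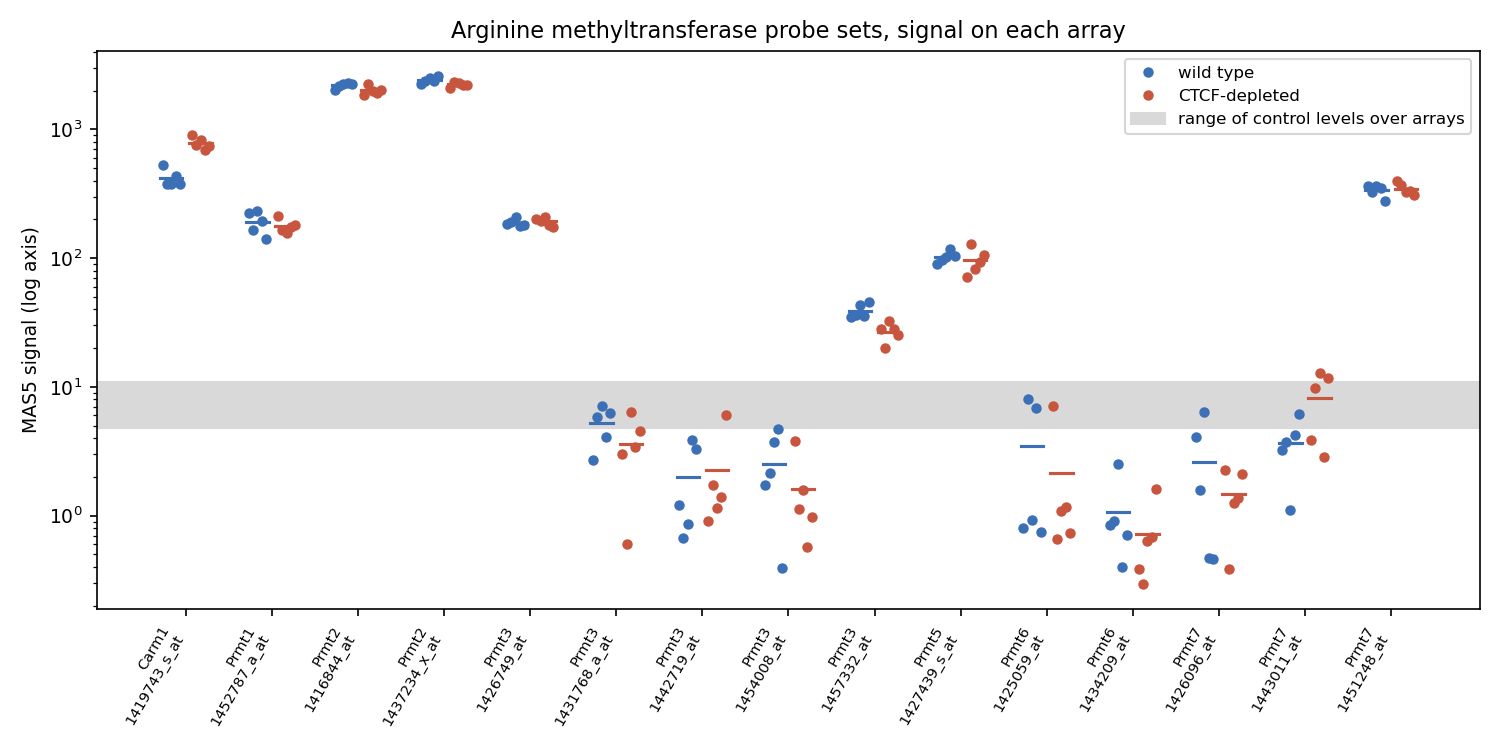
MAS5 signal on a log axis for each of the 15 arginine methyltransferase probe sets, with 1 point per array and a bar at each group mean (5 wild-type and 5 CTCF-depleted arrays); the grey band spans the control levels of the 10 arrays, 4.75 to 10.9. Carm1 is higher on every depleted array, Prmt3 probe set 1457332_at is lower on every depleted array, and both Prmt6 probe sets lie within or under the band.

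Over the whole family, 9 of the 15 probe sets, from 6 of the 7 genes, passed the filter on dim signals. Of these 9, 1 was called higher (Carm1) and 1 lower (a Prmt3 probe set), beside backgrounds of 5.48% and 7.12% over all tested probe sets. These same 2 were the tested member probe sets whose groups did not overlap, as for 11.1% of all tested probe sets. The Carm1 difference was known when the family was chosen, so these counts beside those shares are no evidence about the family. The remaining 7 were not called. The 6 untested probe sets (3 of Prmt3, 2 of Prmt6 and 1 of Prmt7) read between 0.295 and 8.09, and 3 of them were above the control level on no array.

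Prmt1, the major type I enzyme and the source of most asymmetric dimethylarginine in cells, read 224, 165, 233, 195 and 140 in wild-type replicates 1 to 5 on probe set 1452787_a_at. In depleted replicates 1 to 5 it read 212, 166, 156, 175 and 182. The depleted arrays all lay inside the wild-type range. The log2 fold change was -0.09 with a 95% interval of -0.35 to 0.18, and its pooled within-group SD of 0.24 exceeded that of 91.1% of probe sets of like brightness. As a ratio the interval ran from 0.784-fold to 1.13-fold.

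Prmt2, a type I enzyme with an SH3 domain that acts as a coactivator of nuclear receptors, gave the brightest signals of the family, although levels of different probe sets cannot be compared. On probe set 1416844_at the wild-type replicates 1 to 5 read 2040, 2158, 2245, 2276 and 2267, and the depleted replicates 1855, 2268, 1997, 1923 and 2040. Depleted replicate 2 lay among the wild-type arrays, and the other 4 depleted arrays lay below all of them, replicate 5 by less than 1 unit. On probe set 1437234_x_at the values were 2260, 2376, 2504, 2371 and 2591 in wild type and 2101, 2344, 2287, 2222 and 2221 in depleted oocytes, again with overlap. Both probe sets gave small negative log2 fold changes that were not called, -0.13 (95% interval -0.24 to -0.01) and -0.11 (-0.21 to -0.01). Both intervals lay below 0 before adjustment over all probe sets. Without depleted replicate 2 the first probe set was called lower, at -0.17. It stayed uncalled in 19 of 20 alternatives, and the second stayed uncalled in all 20. Median centring brought them to -0.040 and -0.028. An x_at suffix marks probes that may bind unrelated transcripts.

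Prmt3, a cytosolic enzyme with a zinc finger that methylates the ribosomal protein Rps2, gave different answers on its probe sets. The brighter one, 1426749_at, read 183, 192, 208, 177 and 181 in wild-type replicates 1 to 5 and 203, 194, 210, 181 and 175 in depleted replicates, and the groups overlapped throughout. Its log2 fold change was 0.03 with a 95% interval of -0.13 to 0.20. The dimmer one, 1457332_at, read 34.8, 36.2, 42.9, 35.3 and 45.5 in wild type and 28.1, 19.9, 32.6, 28.1 and 25.4 in depleted oocytes, all above the control level. Every depleted array was below every wild-type array there, and the log2 fold change was -0.51 ± 0.15 (SE), or 1.42-fold lower. The intervals of the 2 probe sets did not overlap. The dimmer probe set was called lower in this fit, but not under median centring (-0.42), quantile normalization (-0.44), without a filter (-0.51), or with the 3-prime to 5-prime ratio as covariate (-0.33). It was also not called without wild-type replicate 3 (-0.47) or 5 (-0.45), or without depleted replicate 2 (-0.41) or 5 (-0.49). The other 3 Prmt3 probe sets read at most 7.12 and were not tested. Which transcripts of the gene each probe set detects was not analysed here.

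Prmt3 is also the member whose promoter is shown, because among the windows searched it alone held the core of the CTCF recognition sequence. RefSeq windows of assembly GRCm38.p6, from 250 bases before to 50 bases after the gene's start, were found for 6 of the 7 members, without Carm1. The core was searched on both strands in a loose form of 12 letters, 5 of them open to any base, that 2828 of 32851 windows (8.61%) contained. The Prmt3 match began 116 bases before the start, and the other 5 members' windows had none. The 250 bases before the start, at chr7:49778108-49778357 on the plus strand, are given 5′ to 3′ with the match in capitals.
Prmt3 promoter: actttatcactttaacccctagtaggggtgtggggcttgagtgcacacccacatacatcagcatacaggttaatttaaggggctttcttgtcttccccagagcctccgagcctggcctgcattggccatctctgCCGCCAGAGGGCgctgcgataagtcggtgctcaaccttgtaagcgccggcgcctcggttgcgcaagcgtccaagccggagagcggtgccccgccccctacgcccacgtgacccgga
The arrays did not measure binding, and the match is a description of these letters only. The window was GC-rich, at 61.7% of its 300 bases with 24 CpG dinucleotides. Those of the other 5 members held 55.0% to 69.7% and 16 to 39 CpG dinucleotides, with the highest of both for Prmt7.

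**Figure D2:**
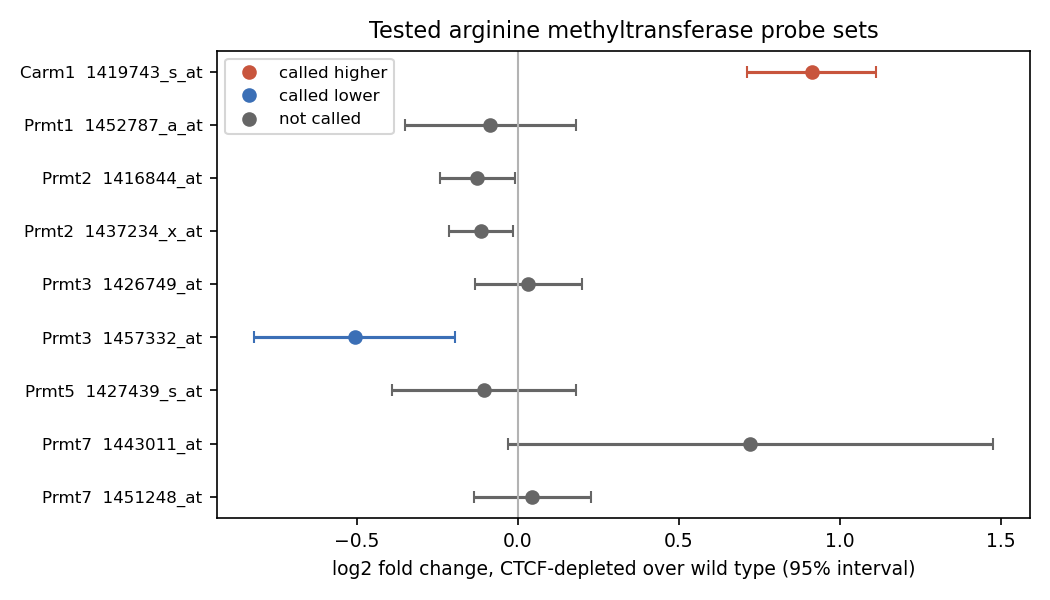
Log2 fold change of the 9 tested arginine methyltransferase probe sets, depleted over wild type, with 95% intervals from limma (5 against 5 arrays). Carm1 lies at 0.91 and Prmt3 probe set 1457332_at at -0.51, while the other Prmt3 probe set lies at 0.03.

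Prmt5, the main enzyme of symmetric dimethylation and a germ cell regulator, read 89.8, 96.7, 103, 118 and 103 in wild-type replicates 1 to 5 on probe set 1427439_s_at. The depleted replicates read 71.4, 129, 81.8, 92.8 and 106, so depleted arrays held both the lowest and the highest value. The log2 fold change was -0.10 with a 95% interval of -0.39 to 0.18.

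Prmt6, a nuclear type I enzyme that methylates histone H3, was near the background. Probe set 1425059_at read at most 8.09 and was above the control level on 1 of 5 wild-type arrays and 0 of 5 depleted arrays. Probe set 1434209_at read at most 2.52 and was above that level on no array. Neither was tested, and a difference between the groups was not detectable at these signals.

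Prmt7, the monomethylating enzyme, read 361, 325, 366, 352 and 280 in wild-type replicates 1 to 5 on its brightest probe set, 1451248_at. The depleted replicates read 394, 370, 329, 331 and 310. The groups overlapped, and the log2 fold change was 0.04 with a 95% interval of -0.14 to 0.23. Without wild-type replicate 5 it was -0.02, and without depleted replicate 1 it was -0.0032. A second probe set, 1443011_at, read 1.10 to 6.16 in wild type and 2.83 to 12.8 in depleted oocytes. It was above the control level on 0 of 5 wild-type and 3 of 5 depleted arrays, and it was not called. Its wild-type mean of 3.70 lay under the filter's signal of 5.13, so it passed the filter through the depleted arrays alone. Its log2 difference was 0.72 (95% interval -0.03 to 1.47) with the offset used here and 0.28 with a larger offset, so it gives no size of a change. The third, 1426096_at, was above the control level on no array.

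The genes around these enzymes were then counted, in 6 groups written from general knowledge and each gene taken by its brightest probe set. Of 87 listed symbols, where Prmt10 is an older name of Prmt9, 80 were on the array with a single symbol and 74 were tested. Of these 6 (Ahcy, Btg2, Ncoa3, Pabpc1, Slc25a26 and Snrpb) rose and 2 (Clns1a and Rps10) fell, 10.8% in all, beside 16.4% of all 13811 tested genes (7.26% higher and 9.12% lower). Their median log2 fold change was 0.0063, against -0.017 over all tested genes. Under median centring 9 were higher and 0 lower. The gene shares of 7.26% higher and 9.12% lower are also the background of the group counts below. The brightest probe set did not speak for every gene. Of 90 other tested probe sets of these genes, 5 were called higher and 2 lower, beside 5.48% and 7.12% of all tested probe sets. All 7 were from genes not called by their brightest one. Besides those given with their groups, these were Ncoa1, a nuclear receptor coactivator, at -0.33, Nono, an RNA-binding protein, at -0.36, and Ahcyl1, a relative of Ahcy, at 0.36 on the log2 scale.

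Other arginine methyltransferases did not pass. Of 5 listed symbols, 3 were tested. Prmt9, a second type II enzyme, read 39.2, 44.4, 45.0, 50.7 and 41.1 in wild-type replicates 1 to 5 and 74.8, 48.1, 72.5, 50.9 and 58.0 in depleted replicates. Depleted replicate 2 lay below wild-type replicate 4, and 4 of 5 depleted arrays exceeded all wild-type arrays. Its log2 fold change was 0.43 ± 0.14 (SE) with an adjusted p of 0.0508 (limma, Benjamini-Hochberg), and it passed in 8 of 20 alternatives, among them median centring (0.51) and quantile normalization (0.48). Ndufaf7, which methylates a subunit of mitochondrial complex I, had -0.0089, turning to 0.077 under median centring, and Mettl23 0.11. Prmt8, the membrane-bound brain enzyme, did not pass the filter on dim signals.

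Of 11 partners and adaptors, 2 rose and 1 fell. Ncoa3, a nuclear receptor coactivator that recruits CARM1, rose from 823 ± 17.5 (SD, n = 5) to 967 ± 43.2 (SD, n = 5), or 0.23 ± 0.05 on the log2 scale (± SE; adjusted p = 0.00436 by limma with Benjamini-Hochberg), with no overlap, and its other probe set gave 0.17. Btg2, an antiproliferative protein that binds and stimulates PRMT1, rose 1.25-fold (122 ± 6.49 to 154 ± 9.90), also with no overlap. Its other probe set gave 0.33. Neither that probe set nor the other one of Ncoa3 was called. Clns1a, the pICln protein that presents Sm proteins to PRMT5, fell by 0.15 on the log2 scale (limma, Benjamini-Hochberg adjusted p = 0.0174). Its other probe sets gave -0.15 and 0.25, neither called. Its brightest probe set was not called under median centring (-0.065) or without the intensity trend. Wdr77, the obligate partner of PRMT5, was near the control level, at 6.95 in wild type and 6.30 after depletion. Of the members of the list not called, the log2 fold change was -0.026 for the coactivator Ncoa2, -0.095 for the acetyltransferase Crebbp and -0.043 for the PRMT5 adaptor Riok1. Ncoa2 was 0.060 and Riok1 0.043 under median centring. Another Ncoa2 probe set was called higher, at 0.39 (limma, Benjamini-Hochberg adjusted p = 0.00200), and 2 more gave -0.31 and 0.34 and were not called. The other probe sets of Crebbp gave 0.023 to 0.071, and those of Riok1 -0.073 to 0.30, none of them called.

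Of 31 tested substrates, 2 rose and 1 fell. Snrpb, an Sm protein of the spliceosome, rose 1.31-fold from 253 ± 17.8 to 335 ± 60.8 (SD, n = 5; limma, Benjamini-Hochberg adjusted p = 0.0225). Its depleted replicate 5 read 250 and lay among the wild-type arrays. Its other probe set gave 0.26 and was not called. The brightest probe set lost its call without the intensity trend, without wild-type replicate 1 (0.37) or 4 (0.36), and without depleted replicate 1 (0.30) or 4 (0.36). Pabpc1, the cytoplasmic poly(A)-binding protein that CARM1 methylates, rose 1.22-fold (adjusted p = 0.0496), and 14 of 20 alternatives ended that call, with adjusted p up to 0.148. The ribosomal protein gene Rps10 fell by 0.18 on the log2 scale (adjusted p = 0.0387), while 0.0074, -0.044, 0.21 and -0.068 came from 4 further probe sets, and 11 of 20 alternatives ended the call. Pabpn1, a nuclear poly(A)-binding protein, did not pass by its brightest probe set, at 0.032, while 2 of its other probe sets were called higher, at 0.42 (limma, Benjamini-Hochberg adjusted p = 0.0401) and 0.12 (adjusted p = 0.0460), and 1 was not, at 0.067. Also not called by their brightest probe set were Rps2 at -0.078 and Trp53bp1, a DNA damage response protein, at -0.030, and median centring gave 0.0079 for Rps2 and 0.056 for Trp53bp1.

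The readers of the mark did not pass: of 12 tested Tudor-domain genes, 0 rose and 0 fell, with log2 fold changes from -0.071 to 0.29. Tdrd7, a germline granule protein, at 0.27 (limma, Benjamini-Hochberg adjusted p = 0.0656), was called higher under median centring. The brightest were Tdrd12, a piRNA factor, at 0.077, Tdrd3, a transcriptional coactivator, at 0.014, and Rnf17, a germline protein, at 0.088.

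Among genes that supply and recycle S-adenosylmethionine, 2 of 10 tested rose and 0 fell. Ahcy, which removes S-adenosylhomocysteine, the product that inhibits methyltransferases, read 475, 500, 546, 542 and 426 in wild-type replicates 1 to 5 and 640, 628, 625, 578 and 564 in depleted replicates. The groups did not overlap, and the rise was 1.22-fold, or 0.29 ± 0.07 on the log2 scale (± SE; limma, Benjamini-Hochberg adjusted p = 0.0123), lost without the intensity trend (adjusted p = 0.0536). Slc25a26, the carrier that brings S-adenosylmethionine into mitochondria, rose 1.19-fold from 685 ± 32.8 to 820 ± 61.5 (limma, Benjamini-Hochberg adjusted p = 0.00905), with no overlap. Its other probe set gave 0.22 and was not called. Mtr, the methionine synthase, had -0.28 (adjusted p = 0.0545), without overlap between the groups and with -0.047 on its other probe set, and it was called lower in 5 of 20 alternatives. Mat2b, Adk and Ahcyl2 had 0.019, -0.042 and 0.12 and were not called. The groups of Ahcyl2 did not overlap, and its other probe sets gave -0.73 and 0.053, neither called. Those of Adk gave 0.030 to 0.22, none of them called.

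Of genes that clear methylarginine or deiminate arginine, 0 of 7 tested were called by their brightest probe set. Padi6, the abundant oocyte protein of the cytoplasmic lattices, had a log2 fold change of -0.015 at a mean signal of 6959 in wild type, and 0.071 under median centring. Ddah1, which breaks down free asymmetric dimethylarginine, at 0.47 (limma, Benjamini-Hochberg adjusted p = 0.0780), was called higher under median centring, and its other probe set was called higher in the fit itself, at 0.82 (adjusted p = 0.0238). Jmjd6 had 0.13 and Padi2 -0.054, the latter 0.032 under median centring.

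**Figure D3:**
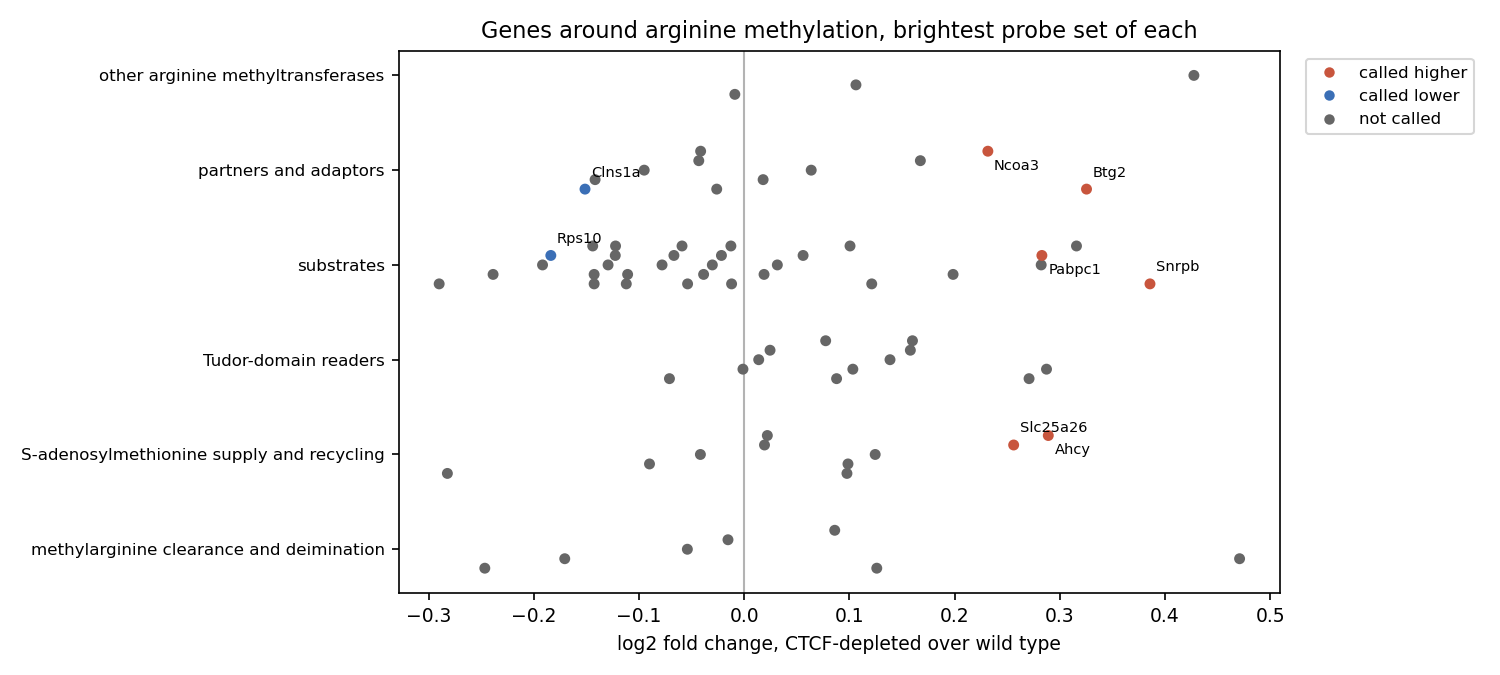
Log2 fold change (depleted over wild type) of the 74 tested genes around arginine methylation, 1 point per gene by its brightest probe set, in 6 rows by group, with called genes coloured and named. The points run from -0.29 to 0.47, and 6 genes are called higher and 2 lower.

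The genes next to Carm1 were compared with it, a choice made after its values were seen. Of the 5 protein-coding genes on either side in RefSeq order, 7 were tested and 0 were called by limma with Benjamini-Hochberg adjustment. Over all tested genes, 16.4% were called in either direction. Yipf2, whose annotated span overlaps the end of Carm1, had a log2 fold change of -0.16 (95% interval -0.34 to 0.02), and the next gene, Timm29, had -0.14. Smarca4, an ATPase of SWI/SNF chromatin remodelling, had -0.031 (-0.14 to 0.08). The largest of the 7 in absolute size was Qtrt1, at -0.36 (adjusted p = 0.0576).

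**Figure D4:**
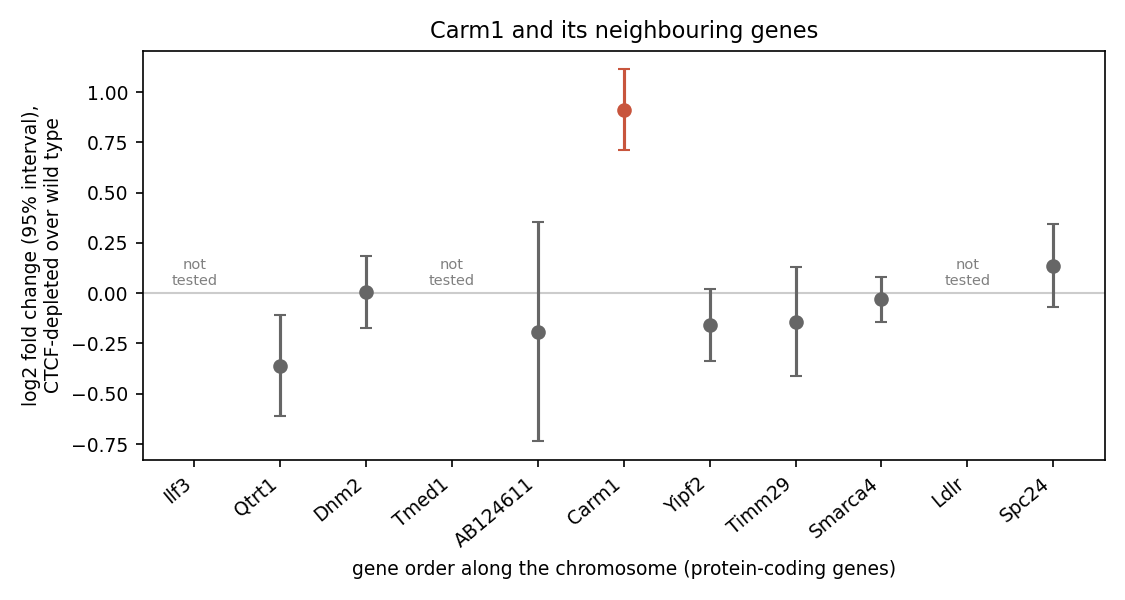
Log2 fold change (depleted over wild type) with 95% interval for Carm1 and the 5 protein-coding genes on each side of it, in chromosome order and not to distance. Carm1 lies at 0.91, and the 7 tested neighbours lie between -0.36 and 0.14.

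Genes with values most like those of Carm1 over the 10 arrays were named by the root mean square difference of their centred log2 values. The median difference was 0.50 over the 10193 genes whose mean signal reached 20. The 6 closest were Tafa2 (0.11), which encodes a chemokine-like secreted protein, Tnfrsf21 (0.13), a death receptor, Lbx1 (0.13), a homeobox gene, Fam90a1b (0.14), Il17b (0.14), a cytokine, and Lgr6 (0.15), a receptor of R-spondins. Since the measure follows the group difference, all 6 were higher in depleted oocytes without overlap. Tafa2 averaged 256 ± 17.8 (SD, n = 5) in wild type against 484 ± 20.6 (SD, n = 5) after depletion, or 1.89-fold, and Lgr6 rose 1.75-fold. Lbx1 rose 1.60-fold.

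**Figure D5:**
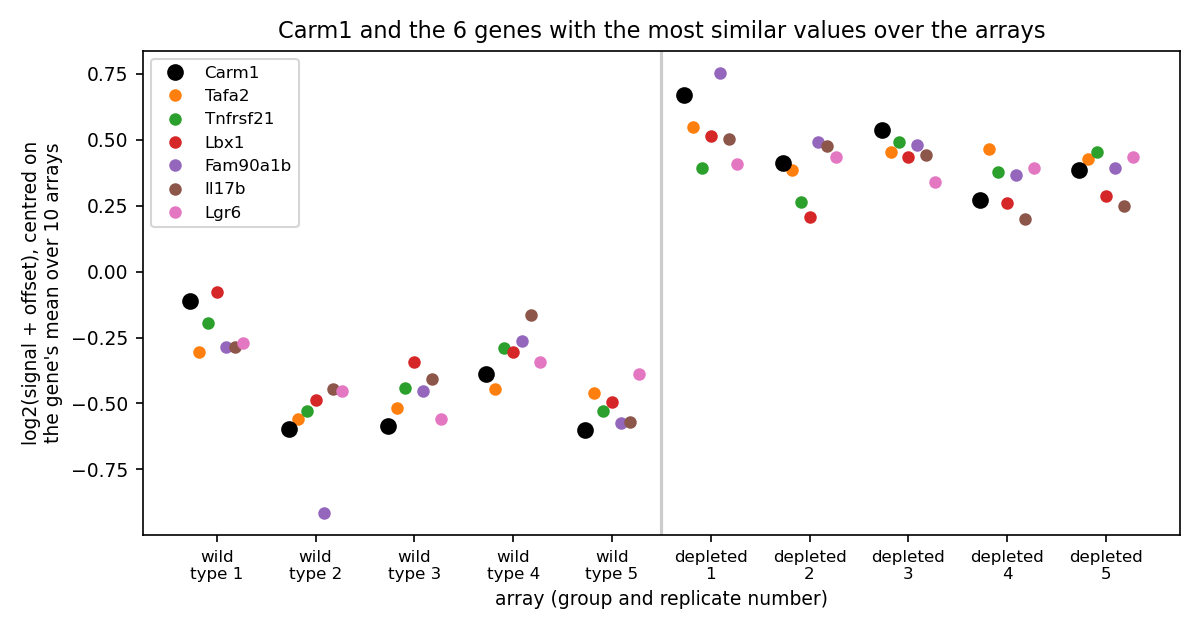
Log2(signal + offset) of Carm1 (black) and the 6 genes closest to it, each centred on its own mean over the 10 arrays, with 1 point per gene and array. All 7 genes lie below 0 on the 5 wild-type arrays and above 0 on the 5 depleted arrays.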

How the data were processed

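RNA was isolated by Picopure kit and made into biotinylated cRNA with an assay for small samples, per the labels' protocols. The deposited intensity values are linear MAS5 signals, 1 per probe set and array, per the submitters' processing notes, and the MAS5 version was not given in the sources used here. The titles gave each array's group and replicate number. The 64 control probe sets were left out. The log2 scale used was log2(signal + 2.47), where 2.47 is the 25th percentile of all signals. A filter removed probe sets whose mean on that scale was below its 40th percentile (signal 5.13). The comparison used limma 3.58.1 under R 4.3.3 (intensity trend) and Benjamini-Hochberg adjustment over 27022 probe sets. The fit was tested on simulated data. The members and gene lists were chosen with earlier results of these data known. Named genes were all members, Ctcf, up to 6 called genes and 3 bright uncalled genes per group, and the 6 genes most like Carm1; markers, neighbours and genes beside a count were named after their values were seen. Listed genes were matched by the platform annotation's symbol, where Prmt10 is an older name of Prmt9. Alternatives were other offsets, filters, scalings and variance models, and the replicate number as a block. Further ones were the 3-prime to 5-prime ratio as a covariate, averaging each gene's probe sets, and omission of each array in turn.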

Additional observations from a re-analysis of the deposited data

Results flagged for a closer look

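Each of 86 groups of 5 arrays among the named probe sets was checked by Dixon's ratio on the log2 scale. That is the gap of the outermost array from the next one, over the range of the group. It exceeded 0.71 in 2 groups, and chance gives about 1 such group in 20. In a tight group a small difference can exceed it. Riok1 read 3688 in wild-type replicate 5 and 3197 to 3329 in the other wild-type arrays. Rps2 read 5175 in wild-type replicate 5 and 4999 to 5036 in the others. Neither was a Carm1 or Prmt probe set.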

How the results depend on the processing

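The Carm1 log2 fold change ran from 0.86 to 1.00 over the alternatives, a description only, since its values chose the family. Both Ctcf probe sets stayed called in all 20. With single arrays left out, 4 to 7 pathway genes were higher and 1 to 3 lower, and 0 to 1 member probe sets were lower. Member probe sets called lower numbered 0 without a filter, under median centring, under quantile normalization and with the 3-prime to 5-prime covariate. Pathway genes called lower numbered 1 without a filter, 0 under median centring, 1 without the intensity trend (Mtr, with 3 higher), 1 with the replicate block and 0 with the mean over probe sets. Under median centring 1086 probe sets were lower and 2179 higher, so the split of directions depends on the scaling. Same-numbered arrays correlated by 0.0024 to 0.051 in their deviations, and differently numbered ones by up to 0.049. The labels did not say whether the numbers pair the samples, and these correlations cannot decide it. The replicate block gave 1592 higher and 1989 lower, and Carm1 stayed at 0.91. Among the pathway genes it ended the Rps10 call, added one for Tdrd7 and changed no other, by the brightest probe set; it changed no call of a member or of Ctcf. Markers, neighbours and genes like Carm1 were not refitted. Uncalled genes near 0 changed sign: under median centring Trp53bp1 (0.056), Padi6 (0.071), Rps2 (0.0079), Riok1 (0.043), Adk (0.044), Ncoa2 (0.060), Ndufaf7 (0.077) and Padi2 (0.032); under quantile normalization Padi6 (0.0020) and Padi2 (0.0185); and with the covariate Tdrd12 (-0.0013), Ncoa2 (0.092) and Padi2 (0.27). Leaving out single arrays did so for Mat2b (-0.021 to 0.050), Tdrd3 (-0.026 to 0.042), Prmt7 (-0.021 to 0.083), Ncoa2 (-0.085 to 0.033), Padi2 (-0.22 to 0.094), Pabpn1 (-2.97e-05 to 0.059), Padi6 (-0.031 to 0.0037) and Ndufaf7 (-0.057 to 0.012). The causes were not tested. Signals under the control level limit Prmt6 and most dim Prmt3 and Prmt7 probe sets.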

Other observations

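Around all 7 enzymes, 50 of 70 neighbouring protein-coding genes (5 on each side) were tested, and 4 were called higher and 2 lower in depleted oocytes, beside 16.4% of all tested genes. Near Prmt7, Esrp2, an epithelial splicing regulator, rose by 0.99 ± 0.16 on the log2 scale (± SE), from a mean of 15.2 to 32.9 without overlap (limma, Benjamini-Hochberg adjusted p = 0.000494). The zinc finger gene Zfp90, also near Prmt7, fell by 0.44 on the log2 scale, with overlapping groups. Near Prmt2, Dip2a fell by 0.58 on the log2 scale, from 201 ± 13.6 to 133 ± 10.6 (adjusted p = 0.000111). Near Prmt5, the proteasome subunit gene Psmb5 rose by 0.40. Irf3, an interferon regulatory factor near Prmt1, rose by 0.36, and Vav3, a guanine nucleotide exchange factor near Prmt6, by 0.78, both with overlapping groups. These genes were named after their values were seen.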
